A study of Mus musculus with 76 samples.

Results

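The synaptic vesicle release machinery was followed through 8 genes, *Snap25*, *Stx1a*, *Vamp2*, *Syt1*, *Cplx1*, *Syp*, *Syn1* and *Rab3a*, out of the 56980 genes in the deposited count table. The 8 were taken as a list by their symbols, each matched 1 Ensembl identifier, and the rule uses no measured value. They were read in 76 neurons of the arcuate region of the hypothalamus of male mice, each recorded with a patch pipette whose content was then sequenced (Patch-seq). All cells came from PomcCreERT2;tdTomato;Pomc-eGFP mice, in which tamoxifen given in adulthood switches on the red tdTomato reporter for good in cells with an active *Pomc* promoter, so that every cell is a traced Pomc neuron. The green Pomc-eGFP reporter is driven by the *Pomc* promoter and was used to mark cells with present activity of that promoter. Cells with eGFP are labelled Pomc+ and cells without it are labelled Ghost. The mice were fed a chow diet (CD) or, for a long period, a high-fat diet (HFD). On CD there were 23 Pomc+ and 15 Ghost cells, and HFD gave 19 cells of either label. The labels do not name the mouse of a cell, so each of the 4 groups is 1 sample of cells. Differences between groups are given without a test, with intervals that cover the counting of cells or reads only and no spread between mice. Tracing rests on the *Pomc* promoter of the CreERT2 transgene, and the eGFP label rests on whether green fluorescence was seen when cells were chosen, before sequencing.

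At a nerve terminal, transmitter is stored in small vesicles that fuse with the plasma membrane when calcium enters. Fusion is driven by a complex of 3 SNARE proteins, 1 on the vesicle (encoded by *Vamp2*) and 2 on the plasma membrane (encoded by *Snap25* and *Stx1a*). Synaptotagmin-1 (*Syt1*) is the calcium sensor of fast release, and complexin-1 (*Cplx1*) binds the assembled SNARE complex and both holds it back and readies it for calcium. Synaptophysin (*Syp*) is an abundant protein of the vesicle membrane, synapsin-1 (*Syn1*) coats vesicles and holds them in a reserve pool, and the small GTPase encoded by *Rab3a* sits on vesicles ready for release. Pomc neurons release peptides from large dense-core vesicles, which use much of the same fusion machinery, as well as amino acid transmitters from small vesicles.

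The depth of the libraries set how much of this could be seen. Total counts per cell ran from 4057 to 1452605 with a median of 322650, and between 548 and 9808 genes had a count in a cell. Levels are given as CPM, the count of a gene in a cell per 1000000 counts of that cell. The 8 genes together took 82926 of the 32910186 counts in the table (0.252%), and 7 genes that were counted in every cell took 43.7%. No molecular identifiers were used, so counts are of reads and not of molecules. Neuronal marker genes (5 genes, all of them counted) had a count in 74 of the 76 cells. The summed CPM of 5 microglial genes (*Ctss*, *C1qa*, *Csf1r*, *P2ry12* and *Cx3cr1*, all counted in at least 1 cell) had a mean of 126 in Pomc+ CD and 82.2 in Ghost CD cells, where *P2ry12* was at 0 in both groups and *Csf1r* at 0 in Pomc+ cells, and of 939 and 693 in the same labels on HFD. It ranged from 0 to 876 and from 0 to 801 on CD, and from 0 to 8250 and from 0 to 4109 on HFD. *Pomc* itself had a median of 6176 CPM in Pomc+ CD (0 to 43974), 2291 in Ghost CD (0 to 34418), 2206 in Pomc+ HFD (90.9 to 13989) and 4172 in Ghost HFD cells (0 to 8826), so that on HFD its median was higher in the cells labelled Ghost, and on both diets the ranges overlapped.

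By position in GRCm38 (GENCODE M21, matched by gene identifier), *Snap25* lies at chr2:136713453-136782428 on the plus strand, *Stx1a* at chr5:135023482-135051100 on the plus strand and *Vamp2* at chr11:69088490-69092384 on the plus strand. *Syt1*, the longest of the 8 with a span of 513333 bases, lies at chr10:108497650-109010982 on the minus strand, and *Cplx1* at chr5:108518554-108550024 on the minus strand. *Syp* lies at chrX:7638471-7653256 on the plus strand, *Syn1* at chrX:20860511-20921004 on the minus strand and *Rab3a* at chr8:70754679-70758677 on the plus strand. Whether the counting used strand is not given in the sources used here, so reads of overlapping exons on opposite strands may not be told apart. Exons of *Syp* share 875 bases with the antisense gene *Gm14703*, which had no count in any cell. Exons of *Syn1* share 9 bases with *Araf*, those of *Rab3a* share 29 bases with *Mpv17l2*, and *Timp1*, which lies inside *Syn1* on the other strand, shares no exon base with it.

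The promoters of 4 members are shown because *Syp* with *Rab3a* and *Syp* with *Syn1* were the pairs of members whose levels went together most closely across cells (Spearman's rho 0.56 and 0.53) over 76 cells, while the pairs with *Syt1* lay between -0.10 and 0.20. Each run is 300 bases of GRCm38.p6 from RefSeq, 250 bases before to 50 after a start of the gene, written 5′ to 3′ on the strand of the gene. Capitals mark the letters TTCAGCACC (the first part of the RE1 consensus that the repressor REST binds to keep neuronal genes silent outside neurons), TGACGTCA (the cAMP response element) and GGGCGG (the GC box), on either strand. The windows are chrX:20920869-20921168 (minus) for *Syn1*, chrX:7638330-7638629 (plus) for *Syp*, chr8:70754453-70754752 (plus, the first of 2 starts) for *Rab3a* and chr10:109010926-109011225 (minus, the first of 2 starts) for *Syt1*.
Syn1: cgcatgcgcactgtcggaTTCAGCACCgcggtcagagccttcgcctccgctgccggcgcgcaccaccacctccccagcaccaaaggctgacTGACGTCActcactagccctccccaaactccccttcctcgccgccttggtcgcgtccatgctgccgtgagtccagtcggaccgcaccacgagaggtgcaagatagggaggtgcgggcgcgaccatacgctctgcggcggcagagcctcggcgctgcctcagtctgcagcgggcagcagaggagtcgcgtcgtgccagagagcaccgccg
Syp: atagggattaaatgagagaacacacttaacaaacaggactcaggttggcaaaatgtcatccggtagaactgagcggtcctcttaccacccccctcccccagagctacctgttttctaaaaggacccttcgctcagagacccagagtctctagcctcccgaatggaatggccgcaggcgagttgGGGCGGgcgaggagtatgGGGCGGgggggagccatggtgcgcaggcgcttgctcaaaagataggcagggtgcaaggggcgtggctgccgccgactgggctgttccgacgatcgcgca
Rab3a: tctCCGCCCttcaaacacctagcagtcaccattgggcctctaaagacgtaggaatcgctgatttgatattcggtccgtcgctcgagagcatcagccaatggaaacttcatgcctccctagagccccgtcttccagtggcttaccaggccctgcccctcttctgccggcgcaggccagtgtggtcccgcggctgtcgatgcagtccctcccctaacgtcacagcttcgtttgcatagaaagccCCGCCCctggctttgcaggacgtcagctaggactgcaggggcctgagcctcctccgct
Syt1: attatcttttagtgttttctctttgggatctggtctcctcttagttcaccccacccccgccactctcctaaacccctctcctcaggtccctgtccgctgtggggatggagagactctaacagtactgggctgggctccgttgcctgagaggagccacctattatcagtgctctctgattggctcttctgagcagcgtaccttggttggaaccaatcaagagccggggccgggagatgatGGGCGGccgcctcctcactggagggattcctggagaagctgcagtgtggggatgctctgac

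The *Syn1* window holds TTCAGCACC once, 232 bases before the start, and TGACGTCA once, 159 bases before it, but no GC box. Only 6 of the 8 members had a window, and among these neither of the first 2 motifs was found outside *Syn1*. Of all 32851 mouse promoter windows in the table, 0.371% hold TTCAGCACC, 1.79% hold TGACGTCA and 35.7% hold GGGCGG. The GC box occurs 2 times in the *Syp*, 2 times in the *Rab3a* and once in the *Syt1* window. It also occurs 3 times in that of *Stx1a* and 2 times in that of *Cplx1*, which are not printed. None of the members' windows holds TATAAA, which 13.6% of all windows hold. The *Syn1* window is 68.3% G and C with 33 CG pairs, and the *Syt1* window is 56.7% with 8, against medians of 52.7% and 7 over all windows. *Snap25* and *Vamp2* had no window and are named only. A match is a description of these letters and was not tied to any level.

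Most of the release gene counts came from a few members. *Snap25*, *Vamp2* and *Rab3a* made up 79.1% of the mean summed CPM of the 8 genes over all cells, and 58 of the 76 cells had a count of all 3. *Snap25* had a count in 67 cells, *Vamp2* and *Rab3a* in 66 each, *Syp* in 54, *Syn1* in 48, *Syt1* in 36, *Cplx1* in 31 and *Stx1a* in 22. Per kilobase of exon, which allows levels of different genes to be compared, the order of mean CPM over the 76 cells was *Rab3a* (215), *Vamp2* (138), *Snap25* (97.7), *Syn1* (37.1), *Cplx1* (34.4), *Syp* (34.2), *Stx1a* (8.01) and *Syt1* (5.32). These lengths join all annotated exons of a gene, so a neuron that uses a short isoform would have its level understated.

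Neighbours in that order mostly overlapped across cells. Per kilobase, *Rab3a* was above *Vamp2* in 44 cells and below it in 28, and their quartiles ran from 59.8 to 305 and from 19.2 to 200. *Vamp2* was likewise above *Snap25* in 44 cells and below it in 28. A step came after *Snap25*, which was above *Syn1* in 58 cells and below it in 10. *Cplx1* and *Syp* had nearly equal means per kilobase, but *Cplx1* was below *Syp* in 41 cells and above it in 16. At the low end, *Stx1a* was above *Syt1* in 19 cells, below it in 25, and neither had a count in 32.

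The SNARE genes *Snap25* and *Vamp2* were seen in most cells of every group, with counts in 18 and all 19 of the 19 deepest cells. *Snap25* had a count in 20 of 23 Pomc+ and 13 of 15 Ghost cells on CD (87.0% and 86.7%, exact 95% intervals 66.4 to 97.2% and 59.5 to 98.3%) and in 17 of 19 cells of either label on HFD (89.5%, 66.9 to 98.7%). Its lowest value was 0 in each group, its median was 556 CPM in Pomc+ CD, 505 in Ghost CD, 759 in Pomc+ HFD and 468 in Ghost HFD cells, and its highest was 2597, 1670, 2866 and 1611 CPM in the same order. The ranges of the 4 groups overlapped almost entirely.

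Ghost cells had the lower mean *Snap25* on both diets. On CD the mean was 525 CPM in Ghost and 716 in Pomc+ cells (log2 ratio -0.45), and on HFD it was 553 and 821 CPM (log2 ratio -0.57). Leaving out any 1 cell, the first ratio ran from -0.69 to -0.26 and the second from -0.73 to -0.35. The deposited normalized counts gave -1.08 and -0.71. The median of all genes was itself low on that scale, and with it taken off the values were -0.35 and -0.20.

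*Vamp2* had a count in 18 of 23 Pomc+ CD (78.3%), 14 of 15 Ghost CD (93.3%), 17 of 19 Pomc+ HFD and 17 of 19 Ghost HFD cells. Its median was 474, 483, 264 and 344 CPM in that order, its lowest value 0 in each and its highest 1818, 2343, 1312 and 2257 CPM. Pomc+ cells on HFD had the lowest mean, 366 CPM, against 581 in Pomc+ CD, 551 in Ghost CD and 595 in Ghost HFD cells. Against Pomc+ cells on CD this is a log2 ratio of -0.67, between -0.89 and -0.52 with any 1 cell left out, and against Ghost cells on HFD the ratio of Ghost to Pomc+ was 0.70. The direction of the first ratio depends on how cells are averaged: by means of log2(CPM + 1) it was 0.39, and on the deposited normalized scale -1.34.

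*Stx1a*, the syntaxin of the complex, was the member with the fewest cells, and 16 of the 22 cells with a count of it had at least 5 counts. It had a count in 5 of 23 (21.7%, exact interval 7.46 to 43.7%), 5 of 15 (33.3%, 11.8 to 61.6%), 5 of 19 (26.3%, 9.15 to 51.2%) and 7 of 19 cells (36.8%, 16.3 to 61.6%) in Pomc+ CD, Ghost CD, Pomc+ HFD and Ghost HFD, so that the median was 0 in each group. Its highest values were 142, 137, 209 and 173 CPM. Mean levels of 16.8, 19.96, 22.1 and 27.1 CPM rest on so few cells that leaving out 1 cell turned the sign of its log2 ratio in each of the 4 comparisons. At this depth a cell without a count may still hold the transcript, and in the 19 deepest cells, with at least 668173 counts, *Stx1a* was seen in 10 against 2 of the 19 shallowest.

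Relatives of the SNARE genes were seen as well. *Snap47*, a relative of *Snap25*, had a count in 54 cells and a mean of 156 CPM per kilobase, above the 97.7 of *Snap25* itself. *Snap23*, which serves secretion in many non-neuronal cells, had a count in 9 cells, all of them with *Snap25*. *Vamp1*, which takes the place of *Vamp2* at some synapses, had a count in 16 cells, each of which also had *Vamp2*, and 2.18 CPM per kilobase against 138. *Vamp4* was counted in 44 cells, 43 of them with *Vamp2*.

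**Figure D1:**
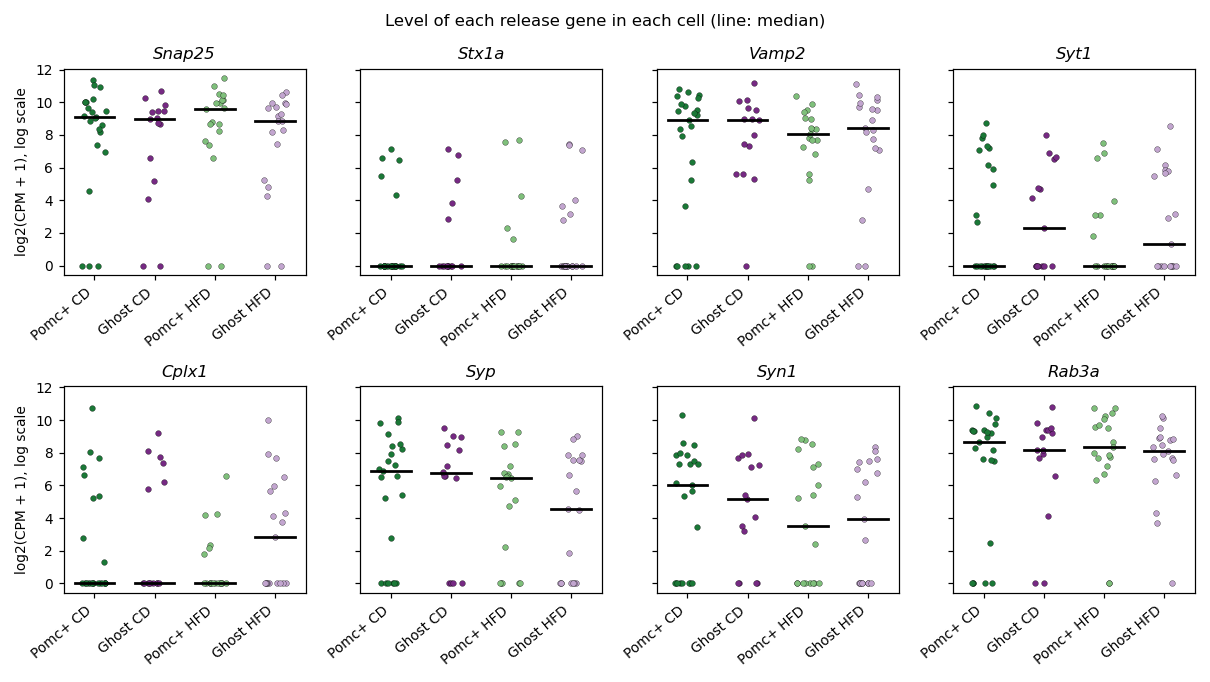
Level of each of the 8 genes in each cell as log2(CPM + 1), in the 4 groups of cells (23, 15, 19 and 19), with the group median as a black line. *Snap25*, *Vamp2* and *Rab3a* form a cloud with a few cells at 0 in every group, while *Stx1a* has a count in 22 of 76 cells and a median of 0 in each group.

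*Syt1*, the calcium sensor, had the lowest mean per kilobase of the 8. It had a count in 11 of 23 Pomc+ CD (47.8%, exact interval 26.8 to 69.4%), 8 of 15 Ghost CD (53.3%, 26.6 to 78.7%), 7 of 19 Pomc+ HFD (36.8%, 16.3 to 61.6%) and 10 of 19 Ghost HFD cells (52.6%, 28.9 to 75.6%). Its medians were 0, 3.86, 0 and 1.53 CPM, its lowest value was 0 and its highest 427, 253, 182 and 377 CPM. In the 19 deepest cells 11 had a count of *Syt1*, while *Vamp2*, *Syp*, *Syn1* and *Rab3a* were counted in all 19.

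Some other synaptotagmins were better represented. *Syt11*, which does not bind calcium, had a count in 63 cells, *Syt4* in 52 and *Syt5* in 45, with 64.7, 41.95 and 70.2 CPM per kilobase against 5.32 for *Syt1*. Of the 40 cells without *Syt1*, 34 had a count of at least 1 of these 3 genes, as had 34 of the 36 cells with *Syt1*. Others were counted in fewer cells than *Syt1*: *Syt9* in 12, *Syt3* in 10, and *Syt6* and *Syt7* in 7 each. *Syt2*, which replaces *Syt1* as the fast sensor at some hindbrain synapses, had a count in 2 cells. Spearman's rho between *Syt1* and *Syt4*, *Syt5* or *Syt11* across the 76 cells lay between -0.02 and 0.00.

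*Cplx1* was the member whose level was most unevenly spread over cells: its highest cell held 29.3% of its summed CPM over the 76 cells, against 5.11 to 13.6% for the other members. On CD, 9 of 23 Pomc+ cells (39.1%, exact interval 19.7 to 61.5%) and 6 of 15 Ghost cells (exact interval 16.3 to 67.7%) had a count, and on HFD 6 of 19 Pomc+ (31.6%, 12.6 to 56.6%) and 10 of 19 Ghost cells (52.6%, 28.9 to 75.6%). The 9 Pomc+ cells on CD held 1679, 265, 206, 139, 99.8, 39.9, 36.8, 5.98 and 1.53 CPM, and the 6 Pomc+ cells on HFD held 93.2, 18.3, 17.4, 4.21, 3.46 and 2.54 CPM. The 6 Ghost cells on CD held between 52.985 and 587 CPM, and the 10 Ghost cells on HFD between 6.08 and 1043 CPM. Low values thus stood together in the Pomc+ cells on HFD, of which 2 of 19 had at least 5 counts, against 8 of 23, 5 of 15 and 8 of 19 in Pomc+ CD, Ghost CD and Ghost HFD. Thinned to 40000 counts per cell, the expected share with a count was 13.9% in Pomc+ HFD cells and 32.6, 40.7 and 44.5% in the others.

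Its relative *Cplx2* was counted in as many cells as *Cplx1*, 31, and 17 cells had both, so that 45 cells had a complexin of either kind. Per kilobase *Cplx1* was at 34.4 and *Cplx2* at 9.90 CPM. *Cplx3* had a count in 0 of 76 cells, which allows a share of up to 3.95% (3 cells of 76; the exact interval reaches 4.74%) for cells with a count at this depth, not for cells that express it.

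The genes of the vesicle itself, *Syp*, *Syn1* and *Rab3a*, were seen in most cells. *Syp* had a count in 17 of 23, 11 of 15, 14 of 19 and 12 of 19 cells (73.9, 73.3, 73.7 and 63.2%) in Pomc+ CD, Ghost CD, Pomc+ HFD and Ghost HFD. Its median was 118, 110, 87.2 and 22.8 CPM, its lowest value 0 and its highest 1110, 740, 629 and 528 CPM in that order. The mean was lower on HFD in both labels, 142 against 243 CPM in Pomc+ (log2 ratio -0.78) and 115 against 203 CPM in Ghost cells (-0.82). Without any 1 cell these ratios stayed between -1.08 and -0.52 and between -1.14 and -0.52. On the deposited normalized scale they were -1.03 and -0.08.

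*Syn1* had a count in 15 of 23, 11 of 15, 11 of 19 and 11 of 19 cells (65.2, 73.3, 57.9 and 57.9%) in the same order. Its median was 65.5, 35.3, 10.2 and 14.4 CPM, its lowest value 0 and its highest 1269, 1102, 456 and 327 CPM. The mean was again lower on HFD, 106 against 157 CPM in Pomc+ (log2 ratio -0.57) and 79.4 against 145 CPM in Ghost cells (-0.87). Here 1 cell per label decided the size: without cell 686 (Pomc+) the first ratio was -0.01, and without cell 684 (Ghost) the second was 0.04. From summed counts over summed totals the second was 0.07. *Syn2*, a relative with the same role, had a count in 50 cells, so that 58 cells had *Syn1* or *Syn2*, and *Syn3* in 7.

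*Rab3a* had a count in 18 of 23, 13 of 15, 17 of 19 and 18 of 19 cells (78.3, 86.7, 89.5 and 94.7%). Its median was 410, 289, 327 and 278 CPM, its lowest value 0 and its highest 1861, 1763, 1724 and 1198 CPM. On HFD the mean was 365 CPM in Ghost and 597 in Pomc+ cells (log2 ratio -0.71, from -0.91 to -0.55 without any 1 cell), and on CD 464 and 485 CPM (-0.07). Which diet had the larger difference depends on the summary. From summed counts over summed totals the HFD ratio was -0.19 and the CD ratio -0.74. On the deposited normalized scale they were -0.74 and -1.19, and without the genes counted in every cell -0.37 and 0.17. *Rab3b*, which is known from endocrine cells, had a count in 53 cells and 76.4 CPM per kilobase, *Rab3c* in 41 and *Rab3d* in 5. *Synpr* (synaptoporin), the relative of *Syp*, had a count in 19 cells, 18 of them with *Syp*.

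**Figure D2:**
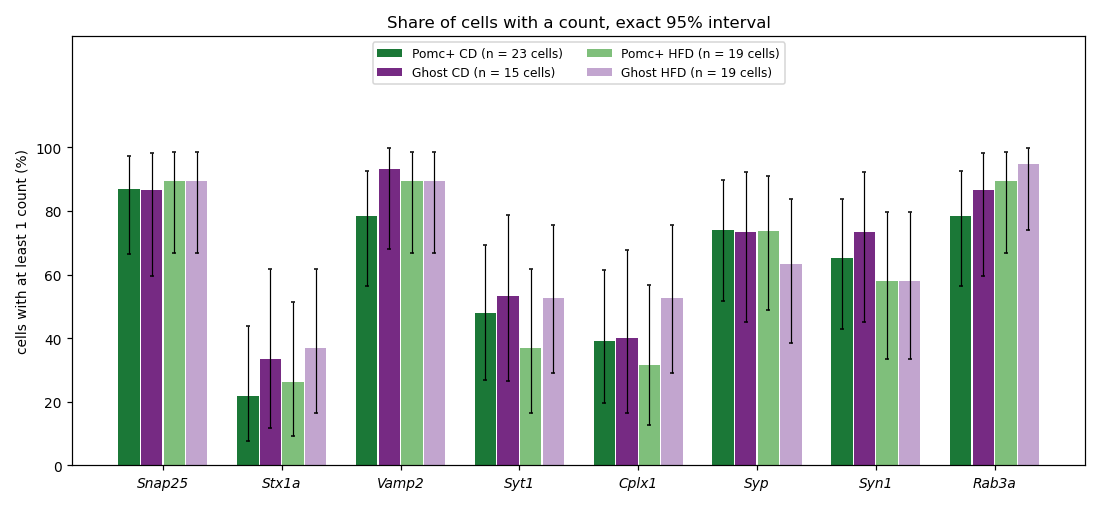
Share of cells with at least 1 count of each gene (bars, in percent, from 0) in the 4 groups. Lines are exact 95% binomial intervals, which treat cells as independent draws and hold no spread between mice. For each gene the intervals of the 4 groups overlap, and *Stx1a* has the lowest shares, from 21.7 to 36.8%.

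The share of cells with a count of a gene moved with depth. In the 19 shallowest cells, with at most 91631 counts, *Snap25* was seen in 12, *Vamp2* and *Rab3a* in 11 each and *Syp* in 5, against 18, 19, 19 and 19 of the 19 deepest. The number of the 8 genes counted in a cell had a Spearman's rho of 0.56 with the cell's total counts and 0.76 with its number of genes counted, over 76 cells, and these measures come from the same libraries. Its median was 6 in each of the 4 groups, and thinned to 40000 counts it was expected at 5.40 in Pomc+ CD, 5.35 in Ghost CD, 5.04 in Pomc+ HFD and 5.39 in Ghost HFD cells.

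All 8 genes were counted in 8 cells, 2 Pomc+ CD, 1 Ghost CD, 1 Pomc+ HFD and 4 Ghost HFD cells, each with at least 190317 counts. At the other end, 7 cells had 1 member or none, 3 of them Pomc+ CD, 1 Ghost CD, 2 Pomc+ HFD and 1 Ghost HFD. These 7 had between 548 and 1670 genes counted. The cell with none, number 700, was labelled Pomc+, had 36556 counts and also had no count of *Pomc*.

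**Figure D3:**
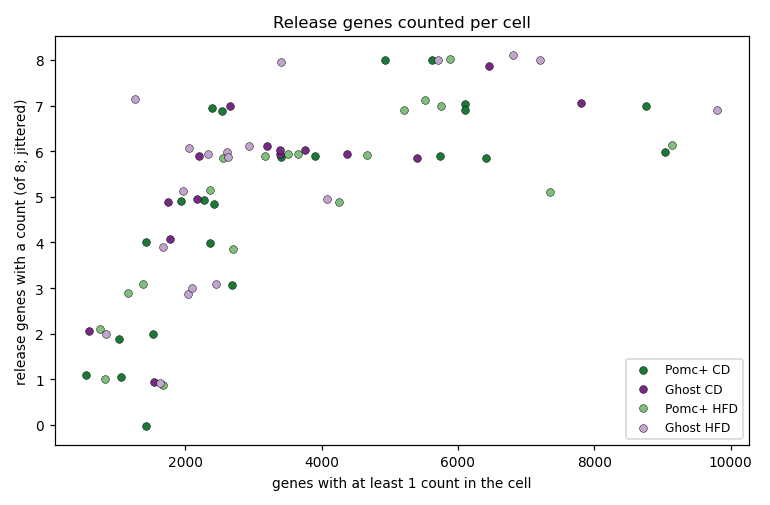
Number of the 8 release genes with a count in a cell (vertical, jittered by less than 1 so that points do not cover each other) against the number of all genes with a count in that cell (horizontal), for the 76 cells by group. Cells with 6 or more members (43 of 76) are spread over all 4 groups, and the 7 cells with 1 or none lie at the left, below 1671 genes.

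The median summed level of the 8 genes was close in the 4 groups, and the ranges overlapped. The median was 1769 CPM in Pomc+ CD (lowest 0, highest 7143), 1803 in Ghost CD (461 to 5515), 1772 in Pomc+ HFD (152 to 5615) and 1839 in Ghost HFD cells (77.5 to 4293). Group means were 2373, 2041, 2084 and 1869 CPM. Over the same cells the summed level of 6 Pomc neuron marker genes had medians of 11726, 4503, 3916 and 5886 CPM. On the deposited normalized scale the medians of the summed release genes were 356, 394, 338 and 339, and the means 1163, 548, 646 and 526. On that scale the mean of Pomc+ CD cells was over 2 times that of Ghost CD cells, while their median was lower.

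The make-up of the sum differed more than its median. *Snap25* made up 39.4% of the mean sum in Pomc+ HFD cells and 25.7 to 30.2% in the other groups, and *Vamp2* made up 17.5% there and 24.5 to 31.8% elsewhere. *Cplx1* made up 0.351% of the sum in Pomc+ HFD cells and 4.44 to 4.93% in the others.

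The comparison of Ghost with Pomc+ cells on CD asks whether traced cells without the green reporter differ in release genes under chow. The mean was lower in Ghost cells for 7 of the 8 genes and higher for *Stx1a*, but none of the 8 reached 2-fold in either direction, whereas 26.9% of the 10638 genes compared were at least 2-fold lower and 23.9% at least 2-fold higher. The median log2 ratio was -0.18 over the 8 genes and -0.06 over all genes. *Syt1* had the lowest ratio, -0.64 (41.9 against 65.5 CPM), and *Vamp2* (-0.08) and *Rab3a* (-0.07) were the nearest to 0. The count of 7 was 4 when the 7 genes counted in every cell were left out of the total, and 3 by means of log2(CPM + 1). On the deposited normalized scale all 8 were lower in Ghost cells and 4 of them at least 2-fold, *Snap25* (-1.08), *Cplx1* (-1.76), *Syp* (-1.23) and *Rab3a* (-1.19), as were 42.9% of all genes. Without the genes counted in every cell *Syt1* was 2-fold lower (-1.04), as were 28.4% of all genes. Over 7 alternative settings, *Snap25* was the member whose ratio kept its sign in each, and the other 7 turned in at least 1.

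On HFD the Ghost cells had the lower mean for 4 of the 8 genes, *Snap25*, *Syp*, *Syn1* and *Rab3a*, and the higher mean for *Stx1a*, *Vamp2*, *Syt1* and *Cplx1*. *Cplx1* was past 2-fold, at 92.1 CPM in Ghost against 7.32 in Pomc+ cells (log2 ratio 3.65), and no member was 2-fold lower. Of the 11098 genes compared, 31.6% were at least 2-fold lower and 20.2% at least 2-fold higher in Ghost cells. The median was -0.01 over the 8 genes and -0.23 over all genes. The *Cplx1* ratio was 2.42 without Ghost cell 649 and 5.17 without Pomc+ cell 719, and 1.89 with the 2 highest Ghost cells left out. *Syt1* was at 42.4 against 22.5 CPM (0.91), and at 0.08 without Ghost cell 652. Here *Syn1* was the member whose ratio turned its sign under at least 1 of the 7 settings. By medians, *Stx1a*, *Syt1* and *Cplx1* gave no ratio.

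Label comparisons could also be made within runs of consecutive cell numbers on 1 diet, of which there are 8. Where a run had 3 or more cells of both labels, the members' median log2 ratio, Ghost over Pomc+, was -1.04, 0.05, -0.21 and 0.998 in 4 CD runs (7, 8, 7 and 7 of the 8 members had a ratio) and 0.49 and -1.01 in 2 HFD runs (8 and 6 members). The sign therefore changed between runs on either diet. By definition a run ends where the diet changes, so diets could not be compared within a run. A difference between diets was therefore not separated from one between runs. In the CD run from cell 699 to 712 the median summed level was 257 CPM in 8 Pomc+ cells, against 1320 to 3795 in the Pomc+ cells of the other CD runs.

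In Pomc+ cells, HFD was set against CD. The mean was lower on HFD for 5 of the 8 genes and higher for *Snap25*, *Stx1a* and *Rab3a*. Past 2-fold lower were *Cplx1*, at 7.32 against 108 CPM (log2 ratio -3.88), and *Syt1*, at 22.5 against 65.5 CPM (-1.54), and no member was 2-fold higher. Of the 11369 genes compared, 20.5% were at least 2-fold lower and 27.2% at least 2-fold higher on HFD. Among the 5353 genes counted in at least 19 cells, as all members were, 752 were at least 2-fold lower. The median log2 ratio was -0.62 over the 8 genes and 0.12 over all genes.

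The *Cplx1* difference in Pomc+ cells stayed past 2-fold without any 1 cell. It was -2.30 without CD cell 662, which holds 67.9% of the group's summed CPM of the gene, and -5.40 without HFD cell 719. With the 2 highest CD cells left out together it was -1.78. *Syt1* stayed between -2.26 and -1.12 without any 1 cell, was -0.81 without the 2 highest CD cells, and was -0.11 from summed counts over summed totals. On the deposited normalized scale all 8 genes had the lower mean on HFD, and 4 of them, *Vamp2*, *Cplx1*, *Syp* and *Syn1*, were past 2-fold lower, as were 23.2% of all genes, while *Syt1* was at -0.68. Over the 7 alternative settings *Syp* and *Syn1* were lower on HFD in each. *Syt1* and *Cplx1* were lower in each setting that gave a ratio, which medians did not, being 0 in both groups. The other 4 members turned their sign in at least 1.

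Mean levels of markers of other cell types differed between these groups. The microglial sum given above was higher on HFD in both labels. The summed CPM of 4 oligodendrocyte genes (*Mbp*, *Mog*, *Mobp* and *Mag*) had a mean of 126 in Pomc+ CD (0 to 577), 117 in Ghost CD (0 to 507), 487 in Pomc+ HFD (0 to 4733) and 273 in Ghost HFD cells (0 to 1180). Of these genes *Mog* was at 0 in the last 3 groups and *Mag* in Ghost CD cells. The sum of 7 astrocyte and tanycyte genes had a mean of 156 (0 to 1176), 82.99 (0 to 699), 259 (0 to 704) and 48.7 CPM (0 to 324) in the same order, with *Rax* at 0 in each group and *Aldh1l1* in Ghost CD cells. Medians in the same order were 0, 0, 211 and 201 CPM for the microglial sum. The oligodendrocyte sum had close medians, 21.8, 32.4, 24.4 and 29.2 CPM. For the astrocyte and tanycyte sum they were 37.5, 19.9, 142 and 9.27 CPM. The part of these sums in the ratios of *Cplx1* and *Syt1* was not tested.

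In Ghost cells the mean was lower on HFD for 3 genes, *Syp*, *Syn1* and *Rab3a*, and higher for the other 5, with none past 2-fold. Of the 10413 genes compared, 27.6% were at least 2-fold lower and 26% at least 2-fold higher. The median log2 ratio was 0.02 over the 8 genes and -0.07 over all genes. *Snap25* (0.08), *Vamp2* (0.11), *Syt1* (0.02) and *Cplx1* (0.02) had nearly the same mean on both diets, with ranges without any 1 cell of -0.09 to 0.32, -0.13 to 0.49, -0.81 to 0.66 and -1.21 to 0.74. *Syp* kept its sign under the 7 alternative settings. *Stx1a* kept its sign in each setting that gave a ratio, which medians did not, being 0 on both diets. The other 6 members turned theirs in at least 1. The values of *Cplx1* and *Syt1* in Ghost cells on either diet stand beside those of Pomc+ cells on CD given above. Whether the labels differ in their response to diet was not tested, and comparisons that share a group share its cells.

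**Figure D4:**
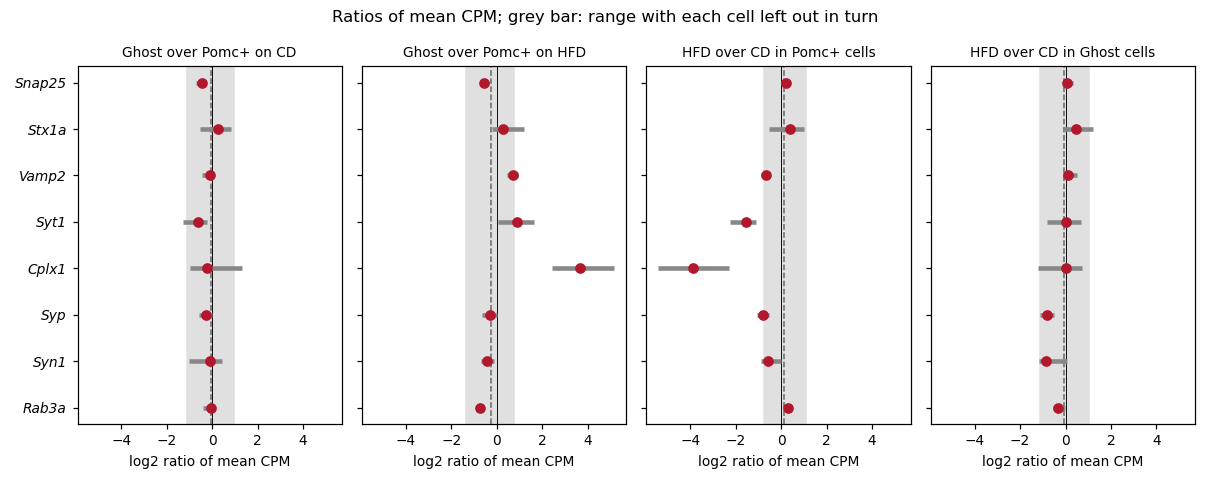
Log2 ratio of mean CPM of each gene (red points) in the 4 comparisons, with the range over leaving out each cell in turn (grey bars), the median of all genes compared (dashed line) and their middle part from the first to the third quartile (shaded). *Cplx1* lies outside the shaded part in 2 comparisons, at 3.65 and -3.88, and *Syt1* in 2, at 0.91 and -1.54, while *Syp* in Pomc+ cells, at -0.78, lies at its edge.

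The summed counts of a group carry counting error only in the intervals that follow, which treat amplified reads as separate molecules and hold no spread between cells. Over summed counts, *Snap25* stood at a CPM of 978 in Pomc+ CD (exact Poisson 95% interval 959 to 997), 706 in Ghost CD (682 to 731), 982 in Pomc+ HFD (962 to 1003) and 593 in Ghost HFD cells (577 to 609). *Cplx1* stood at 145 (138 to 153), 86.5 (78.3 to 95.3), 6.79 (5.17 to 8.75) and 162 (154 to 170) in the same order. The quartiles of *Snap25* across Pomc+ CD cells alone ran from 223 to 1017 CPM.

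Members also varied together from cell to cell. Over the 28 pairs of members, Spearman's rho of CPM across 76 cells had a median of 0.35. It was highest for *Syp* with *Rab3a* (0.56), *Syp* with *Syn1* (0.53), *Snap25* with *Syp* (0.51) and *Snap25* with *Syn1* (0.49). The 7 pairs with *Syt1* lay between -0.10 and 0.20, and the 21 pairs without it between 0.14 and 0.56. All values of a cell share its library and its total. The percent of a cell's counts in the 7 genes counted in every cell had a rho of 0.16 with *Syt1*. With the other members it lay between -0.54 and -0.25. With the 7 genes counted in every cell left out of the total, the median was 0.24, the highest pair *Syp* with *Syn1* (0.45), and *Syt1* again had the lowest pair (-0.11 with *Vamp2*).

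**Figure D5:**
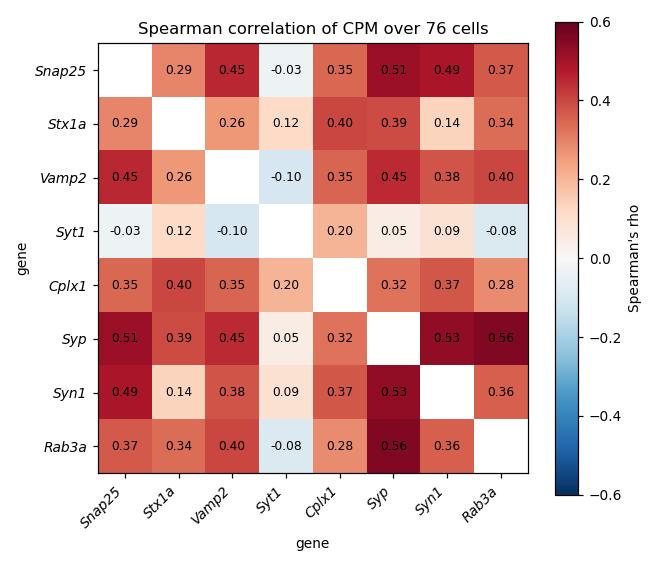
Spearman's rho between the CPM of each pair of the 8 genes over 76 cells, printed in each square and coloured from blue (negative) to red (positive). The row of *Syt1* is pale, between -0.10 and 0.20, and the squares of *Syp* with *Rab3a*, *Syn1* and *Snap25* are the darkest.

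The summed level of the 8 genes across cells was most like that of 5 genes among the 1578 others counted in at least 38 cells. These were *Snrpn* (Spearman's rho 0.75), *Zwint* (0.75), *Ubb* (0.74), *Nap1l5* (0.71) and *Impact* (0.69), over 76 cells and against a median rho of 0.32 for all 1578. With the genes of every cell left out of the total, 3 of these 5 were again among the first 5, *Zwint* (0.60), *Ubb* (0.57) and *Impact* (0.53). The summed level had a rho of 0.55 with *Pomc* itself, and 0.24 on that second scale. With the microglial marker sum it had -0.26, and -0.32 on the second scale.

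The wider presynaptic list held 69 genes in 7 roles that were matched in the table, of which 65 had at least 5 counts in at least 3 cells. In docking, priming and SNARE recycling, *Nsf*, which takes used SNARE complexes apart, was counted in 54 cells. Among active zone scaffold genes *Pclo* was counted in 47 and *Rims2* in 37 cells, and among genes of vesicle endocytosis *Dnm1* in 60 and *Bin1* in 49. Of other vesicle proteins, *Dnajc5* and *Syn2* were each counted in 50 cells. Mean levels per kilobase were 30.1 CPM for *Dnm1* and 6.40 for *Pclo*, lower than those of *Rab3a*, *Vamp2* and *Snap25*.

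The wider list was counted against the same background. Between Ghost and Pomc+ cells 10 of 61 genes with a ratio were at least 2-fold lower and 12 higher on CD (16.4 and 19.7%), and 20 and 3 of 64 on HFD (31.2 and 4.69%). Between HFD and CD, 9 and 12 of 62 were lower and higher in Pomc+ cells (14.5 and 19.4%) and 19 and 10 of 62 in Ghost cells (30.6 and 16.1%). Over all genes the shares lower and higher were 26.9 and 23.9%, 31.6 and 20.2%, 20.5 and 27.2%, and 27.6 and 26% in these comparisons. The list's median log2 ratio was -0.05, -0.32, -0.13 and -0.50, against -0.06, -0.23, 0.12 and -0.07 for all genes. On HFD, Ghost cells had the lower mean for 39 of the 64 genes with a ratio, against 56.4% of all genes. By role these were 11 of 12 other vesicle proteins, 6 of 9 active zone scaffold genes, 5 of 8 other synaptotagmins, Doc2 genes and complexins, 6 of 12 genes of docking, priming and SNARE recycling, 3 of 6 Rab3 family genes and partners, 4 of 8 endocytosis genes and 4 of 9 SNARE paralogues.

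Close relatives of members had values of their own. *Snap47* was at a log2 ratio of -0.94 in Pomc+ cells between HFD and CD and at 0.79 between Ghost and Pomc+ cells on HFD. *Vamp1* was at -2.28 and 0.77 in these comparisons, and *Rab3c* at -0.77 and 0.72. *Cplx2* was at 0.48 and 0.19, unlike *Cplx1* at -3.88 and 3.65. *Syt4* was at -1.06 and -1.11 and *Syt5* at -0.26 and -1.66, where *Syt1* was at -1.54 and 0.91. Each of these ratios rests on the same cells as those of the members and has no replicate check.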

How the data were processed

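The authors amplified the pipette content of each cell as cDNA (SMART-Seq Single Cell kit) and made Nextera XT libraries from it. The submitters' processing notes name cutadapt 2.10, STAR 2.7.5a, DESeq2 and the builds GRCm38 and mm10. The counting program and annotation release are not given in the sources used here. The deposited raw counts are whole numbers per Ensembl gene and cell, without normalization. In the deposited normalized signal, every count of a cell is divided by the same size factor. These size factors, from 0.0157 to 9.05, equal the median of ratios over the 7 genes counted in every cell, as tested on the files, so that scale rests on 7 genes that take 43.7% of all counts.

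CPM was computed here with Python 3.11.15, numpy 2.4.6, pandas 2.3.3 and scipy 1.17.1. Symbols matched 52073 of 56980 identifiers. Background ratios use genes that reached 5 counts in 3 or more cells (12265 genes) and were counted in both groups. Thinning to 40000 counts used the exact expectation and left out 8 shallower cells. Shares have exact Clopper-Pearson and summed counts exact Poisson intervals at 95%. No p-value was made from cells, which are not replicates of a condition. No doublet caller was used, since cells were patched singly. Ratio and thinning steps were tested on simulated data. No 2 cells held identical counts. The rule for the members uses no measured value, but members and lists were chosen with earlier results of these data known. Named are all 8 members, close relatives, in each role of the wider list the 2 genes counted in most cells, and the 5 genes most like the summed members. Some genes that this rule names are not reported here.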

Additional observations from a re-analysis of the deposited data

How the results depend on the processing

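Alternatives were another scaling, another summary of a group, fewer cells and each cell left out in turn, and a value was taken as kept within 1.5-fold. The deposited normalized counts moved the median of all genes to -0.74, -0.51, 0.07 and 0.25 (log2) for Ghost over Pomc+ on CD and on HFD and for HFD over CD in Pomc+ and Ghost cells, from -0.06, -0.23, 0.12 and -0.07. For Ghost over Pomc+ on CD the members' median was then -1.04, which is -0.30 relative to all genes. The number of members with the lower mean in that comparison, 7, was 4 without the genes counted in every cell, 3 by means of log2(CPM + 1) and 4 of 5 by medians. In Pomc+ cells 5 members were lower on HFD, and 8 by deposited normalized counts. In Ghost cells 3 were lower on HFD, against 6 by deposited normalized counts, 6 of 6 by medians (members' median -0.89), 6 in cells with at least 1000 genes and 5 in cells with at least 40000 counts. Within runs of cell numbers, chosen after seeing the data, the members' median for the labels was -1.04 and 0.998 in 2 CD runs and -1.01 in 1 HFD run. Leaving out any 1 cell, the number lower in Ghost cells on HFD against CD ran from 3 to 6. The medians over members stayed between -0.46 and -0.04, -0.36 and 0.19, -0.82 and -0.30, and -0.22 and 0.20 in the order above. The median number of members per cell and the median correlation between members were kept under their alternatives. The cause of these changes was not tested. The low genes *Stx1a*, *Cplx1* and *Syt1* were counted in 2, 5 and 6 of the 19 shallowest cells. In the 19 deepest cells they were counted in 10, 12 and 11. Of 64 alternative shares of cells, 1 left the exact interval, the 10.5% of Pomc+ HFD cells with at least 5 counts of *Cplx1*. No paired analysis was possible because cell numbers are not shared between groups.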
